A study of Mus musculus with 12 samples.

Results

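The data for 2 genes are described here across the mouse renal medulla, the inner kidney region where urine is concentrated: Slc14a1, which encodes the urea transporter UT-B, and Avpr1a, which encodes the V1a receptor for vasopressin. They were taken by name, with earlier results of these data known, as every clone whose only gene in the array annotation was Slc14a1 or Avpr1a. This gave 2 clones, 1 for each gene, of 15600 clones on the array, 9191 of which had a single named gene and together stood for 6786 genes. The series asked how restricting water affects medullary gene expression. It compared 3 water-restricted mice with 3 control mice, each of the former against each of the latter. That makes 9 pairs of mice, 3 of which were hybridised in both dye orientations, for 12 two-colour arrays. The labels used here give no strain, sex or age for the mice and no length of the restriction, and what both groups share beyond the tissue is likewise not stated. Every value is a log2 ratio within an array, so the tissue could not be checked by the level of its marker genes.

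Urea reaches high concentrations in the medullary interstitium and helps to draw water out of the tubules. UT-B sits in the endothelium of the descending vasa recta and in red blood cells, where it lets urea equilibrate across the membrane as blood passes through the medulla, while the related transporter Slc14a2 carries urea out of the collecting duct. Vasopressin is the hormone of water conservation. It acts on collecting duct cells through the V2 receptor, cyclic AMP and protein kinase A to raise water and urea permeability, and on vascular smooth muscle and other cells through the V1a receptor, the G protein Gq, phospholipase C and calcium.

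A sign in these data has no settled direction. The labels place Alexa Fluor 546 in channel 1 and Alexa Fluor 647 in channel 2, with 6 arrays of each orientation. The orientation is called forward where the water-restricted mouse was in Alexa Fluor 546 and reverse where it was in Alexa Fluor 647. However, which dye is the numerator, and whether ratios were turned before deposit, is not given in the sources used here. The array titles name the mouse in Alexa Fluor 546 first, but do not say that the ratio runs in that order. Over all clones, both arrays of a swapped pair correlated at -0.14 for water-restricted mouse 1 and control mouse 3, at 0.13 for mice 2 and 1, and at -0.13 for mice 3 and 2. Below, the ratio is read first as running by dye: the sign of the reverse arrays is turned, and a difference is water-restricted minus control if the ratio is Alexa Fluor 546 over 647, and the reverse otherwise. The second reading leaves all signs as deposited. On it a difference is water-restricted minus control if the ratios were turned to that order, and the reverse otherwise. Between mice of the same group, 11.5% of clones had an unadjusted p under 0.05 by limma's F-test on the first reading and 4.25% on the second. Medians of single arrays lay between -0.04 and 0.06. Spots had an SD of 0.52 to 0.76 on 11 arrays, and of 1.21 on the forward array that joined water-restricted mouse 2 and control mouse 2, the array of widest spread.

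The Slc14a1 values depended on the dye orientation, and within an orientation they were tight. In the forward orientation the deposited log2 ratios ran from -0.19 to 0.25 with a median of 0.01 (mean 0.017, SD 0.18, n = 6 arrays), 3 above and 3 below 0. In the reverse orientation they ran from 0.48 to 1.08 with a median of 0.55 (mean 0.64, SD 0.22, n = 6), all 6 above 0. The orientations therefore did not overlap for this gene. Of 6786 genes, 363 (5.35%) had deposited values that did not overlap between orientations.

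The Avpr1a values also lay on different sides in the 2 orientations, but with more scatter and with overlap. On forward arrays they ran from -1.15 to 0.0055 with a median of -0.55 (mean -0.54, SD 0.41, n = 6 arrays), 5 of 6 below 0. On reverse arrays they ran from -0.27 to 1.78 with a median of 0.21 (mean 0.41, SD 0.72, n = 6), 5 of 6 above 0. The highest value, 1.78, came from water-restricted mouse 1 with control mouse 3, and the next highest in that orientation was 0.48.

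**Figure D1:**
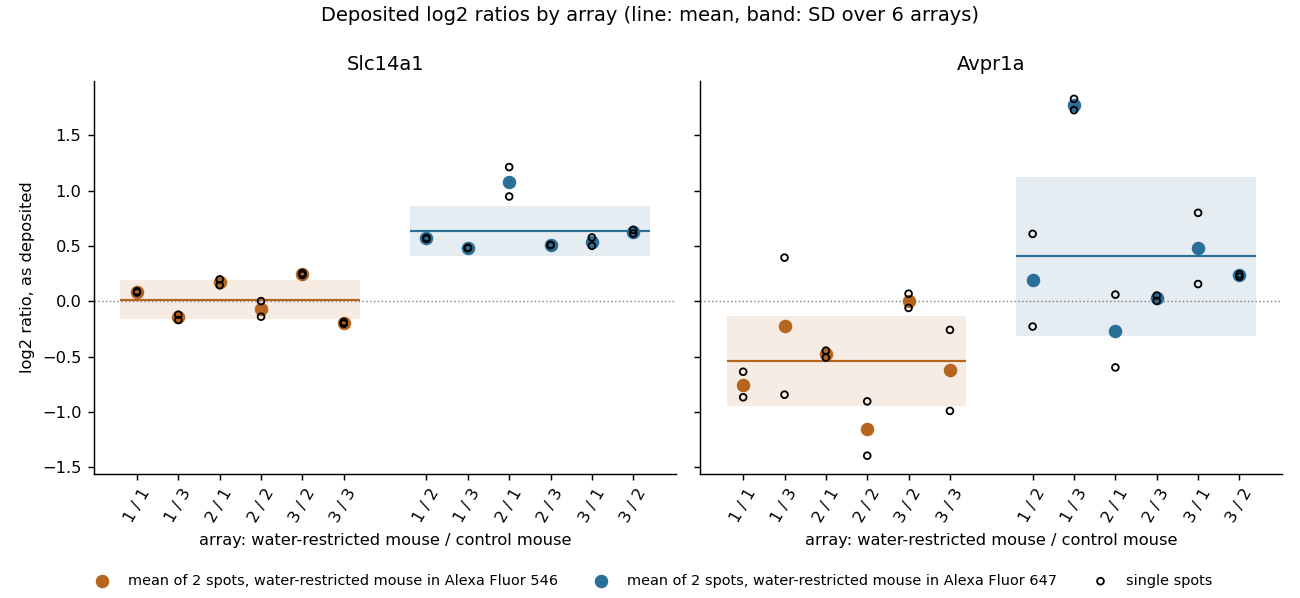
Deposited log2 ratio (y axis) on each of 12 arrays (x axis, numbers of the water-restricted and control mouse) for Slc14a1 and Avpr1a, coloured by dye orientation. Filled points are means of 2 spots, open points single spots, lines and bands the mean and SD over 6 arrays. The Slc14a1 spots nearly coincide and its orientations do not overlap, whereas the Avpr1a spots lie up to 1.24 apart.

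Each clone was spotted as an adjacent pair, which gives a measure of the error within an array. The Slc14a1 spots differed by a median of 0.026 on the log2 scale over 12 arrays, from 0.0048 to 0.27, and 0.974% of all clones had a smaller median gap. The Avpr1a spots differed by a median of 0.36, from 0.021 to 1.24, near the median of 0.31 over all clones. The widest gap was on the forward array of water-restricted mouse 1 and control mouse 3, where 1 Avpr1a spot read 0.40 and the other -0.84. Both spots had the same sign on 11 of 12 arrays for Slc14a1 and on 8 of 12 for Avpr1a. The residual SD between arrays, after fitting mice and dye, was 0.25 for Slc14a1 and 0.69 for Avpr1a, against a median of 0.36 over all genes. The array error of Avpr1a was larger than that of 90.9% of genes, and that of Slc14a1 larger than that of 23.3%. No signal over background was examined here.

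The 3 pairs of mice that were hybridised in both orientations show the same patterns without a change of mice. For Slc14a1, water-restricted mouse 1 with control mouse 3 gave -0.14 on the forward and 0.48 on the reverse array. Mouse 2 with control mouse 1 gave 0.17 and 1.08, and mouse 3 with control mouse 2 gave 0.25 and 0.63. The second value was higher in each of the 3 pairs, and a swap of the dyes turned the sign in only 1 of them. For Avpr1a these pairs gave -0.22 and 1.78, -0.48 and -0.27, and 0.0055 and 0.23, so 2 of 3 pairs differed by little and 1 by a large amount.

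Each deposited value can be split into a part that changes sign with the dyes, which is 0.5 times the difference of the orientation means, and a part that does not, which is their mean. On the first reading the former is the difference between the groups and the latter a dye effect, and on the second reading these roles are exchanged. For Slc14a1 the parts were -0.31 and 0.33, nearly equal in size. For Avpr1a they were -0.47 and -0.06. The median size over all genes was 0.13 for the first part and 0.14 for the second. The Slc14a1 difference between groups is therefore about as large on either reading, while that of Avpr1a is large on the first reading only. The Slc14a1 signs are opposite if both readings run as water-restricted over control.

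**Figure D2:**
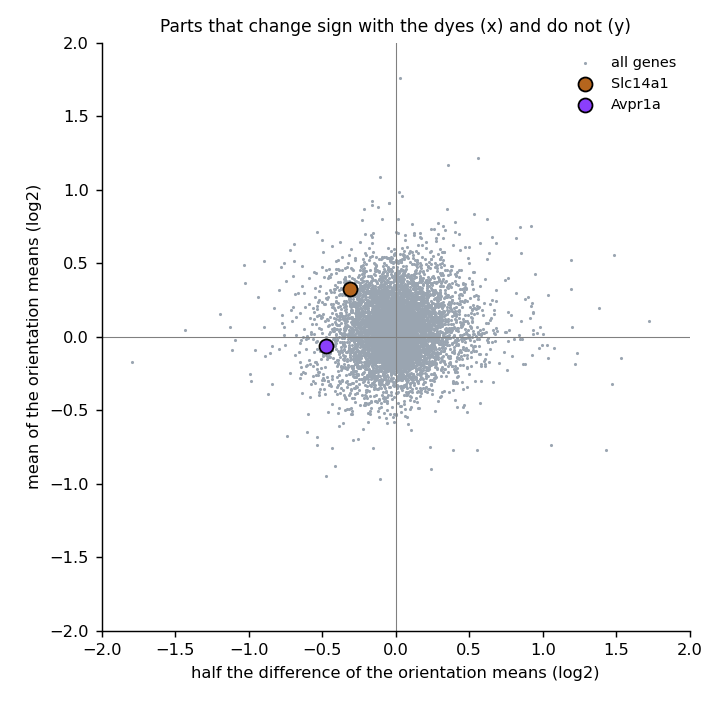
Part of the deposited log2 ratio that changes sign with the dyes (x axis, 0.5 times the difference of the orientation means) and part that does not (y axis, their mean), for 6786 genes (grey) and the 2 genes described. Slc14a1 lies at -0.31 and 0.33, Avpr1a at -0.47 and -0.06. The axes end at -2 and 2 on the log2 scale, and 2 genes fall outside.

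On the first reading, fitted levels were separated between the groups for both genes. The 6 levels of a gene sum to 0, so only their differences carry meaning. Slc14a1 had -0.11, -0.19 and -0.16 in water-restricted mice 1, 2 and 3 (mean -0.15, SD 0.039, n = 3), and 0.15, 0.12 and 0.19 in control mice 1, 2 and 3 (mean 0.15, SD 0.032, n = 3). Avpr1a had -0.40, -0.18 and -0.16 in the former (mean -0.25, SD 0.13, n = 3) and 0.20, 0.24 and 0.30 in the latter (mean 0.25, SD 0.054, n = 3). In neither gene did the groups overlap. Such separation was found in 665 of 6786 genes (9.80%). In bulk tissue, fewer cells of a type and less RNA per cell cannot be told apart.

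The Slc14a1 difference was -0.31 on the log2 scale, a size of 1.24-fold (SE 0.14, 95% interval -0.62 to 0.0072, n = 3 mice per group, limma adjusted p = 0.996). The limma SE is moderated over all genes and is wider than the spread of these 6 levels alone. The sign held on 9 of 12 arrays. Of all genes, 16.8% had a larger difference in size and 5.38% a smaller p. Both dye orientations did not carry it equally. On forward arrays alone it was 0.017 (SE 0.20, limma adjusted p = 0.991), and on reverse arrays alone -0.64 (SE 0.20, limma adjusted p = 0.476).

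The Avpr1a difference was -0.49, a size of 1.41-fold (SE 0.15, 95% interval -0.83 to -0.16, n = 3 mice per group, limma adjusted p = 0.771), with 1 sign on 10 of 12 arrays. Of all genes, 5.66% had a larger difference in size and 1.02% a smaller p. Before adjustment 337 of 6786 genes (4.97%) had a p under the threshold of 0.05, with Avpr1a among them and Slc14a1 not. Both genes were chosen with earlier results of these data known, so these ranks and unadjusted p are description only. The Avpr1a difference was -0.54 (SE 0.21) on forward and -0.41 (SE 0.41) on reverse arrays. Without the array of widest spread, which held the lowest Avpr1a value, it was -0.30 (SE 0.25, limma adjusted p = 0.998).

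Neither gene passed the threshold of 0.05 after Benjamini-Hochberg adjustment, nor did any of the 6786 genes (0 called, 0%). With mice as random effects, limma called 99 genes (1.46%) and neither Slc14a1 (-0.31, SE 0.11, adjusted p = 0.224) nor Avpr1a (-0.47, SE 0.22, adjusted p = 0.417) was among them. That fit shares the same mouse to array variance ratio over all genes, so it does not follow the mouse spread of a single gene. With the 12 arrays taken as independent replicates, which they are not since each mouse is on several, Slc14a1 passed (limma adjusted p = 0.0290) and Avpr1a did not (0.0824). A two-sided exact permutation test of the 6 levels gave p = 0.1 for each gene, the smallest that 3 mice against 3 can give. Levels without overlap always give this value, so it adds nothing to the separation above. The levels also share array errors, which this test ignores.

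On the second reading, the Slc14a1 level was 0.13, 0.21 and 0.11 in water-restricted mice 1 to 3, and in control mice 1 to 3 it was -0.27, -0.16 and -0.013, again without overlap. Its difference was 0.30 (SE 0.14, 95% interval -0.017 to 0.61, limma adjusted p = 0.868). The Avpr1a level was 0.14, -0.43 and 0.064 in the former and 0.14, 0.21 and -0.13 in the latter, which overlapped. The Avpr1a difference was -0.14 (SE 0.19, 95% interval -0.58 to 0.30, limma adjusted p = 0.915). On this reading 805 genes (11.9%) had levels that did not overlap between groups, and 363 (5.35%) had an unadjusted p under 0.05, neither of these 2 genes among the latter. The exact permutation p was 0.1 for Slc14a1 and 0.6 for Avpr1a.

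**Figure D3:**
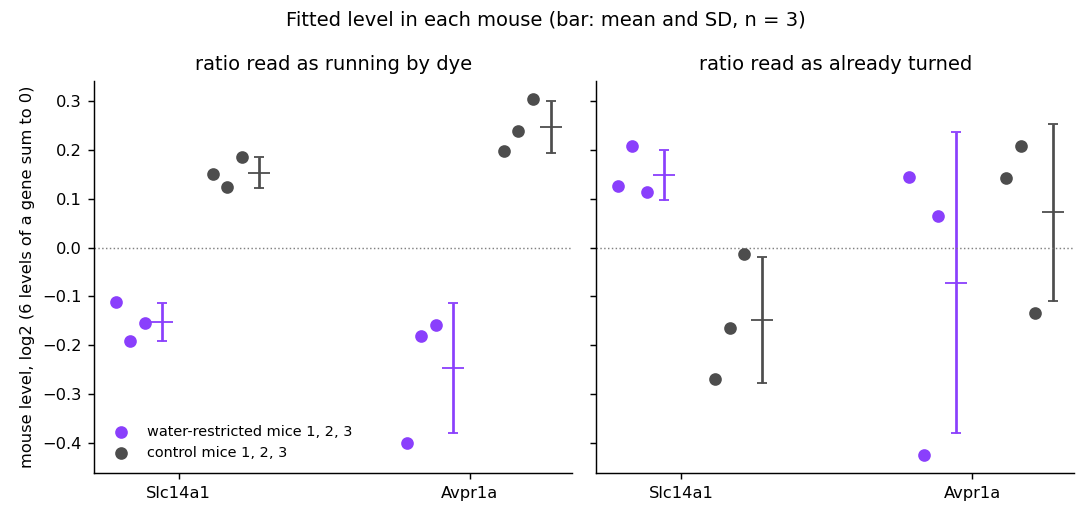
Fitted log2 level (y axis) of Slc14a1 and Avpr1a in each of 3 water-restricted and 3 control mice, with the ratio read as running by dye (left) and as already turned (right). Points are mice 1, 2 and 3 from left to right, and bars give the mean and SD. The Slc14a1 groups are apart in both panels with opposite order, and the Avpr1a groups are apart only in the left one.

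Differences between mice of the same group, set against the error between arrays, passed the threshold in neither gene. The limma F-test gave F = 0.11 for Slc14a1 (adjusted p = 0.984) and F = 0.39 for Avpr1a (adjusted p = 0.893), while 14 genes (0.206%) passed it. The dye term, which on the first reading is a difference between orientations, was 0.33 for Slc14a1 (SE 0.083, limma adjusted p = 0.0473) and -0.06 for Avpr1a (SE 0.17, adjusted p = 0.844). Among all genes 449 (6.62%) passed. The Slc14a1 call was narrow and was lost with arrays centred on their medians (0.30, limma adjusted p = 0.0599), with the first spot alone (0.31, 0.0900) and with the second alone (0.34, 0.0733).

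Of 66 listed genes for urea handling, water channels and vasopressin signalling, 24 were measured, and 12 of these were negative and 12 positive on the first reading. Their median difference was -0.02, against 0.0034 over all genes. None passed the limma threshold, and 3 had an unadjusted p under 0.05, against 4.97% of all genes: Avpr1a, the mitochondrial arginase Arg2 and the calcium channel Itpr2. The second reading had 8 of the 24 negative and a median of 0.06, and 1 gene had an unadjusted p under 0.05. Over all genes that reading had 2756 of 6786 negative, a median of 0.05 and 5.35% with such a p. No clone carried the name Slc14a2, Avpr1b, Avpr2 or Oxtr, or that of any of the 10 listed water channels, in the annotation used here. Slc14a1 was the only measured urea transporter and Avpr1a the only measured receptor of the vasopressin family.

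Arg2, which splits arginine into urea and ornithine, lay on the side opposite to Slc14a1 and Avpr1a. Its difference was 0.88 (SE 0.15, limma adjusted p = 0.386), and it passed with random mouse effects (adjusted p = 0.00129), a fit that called 1.46% of all genes. Of the arm downstream of the V1a receptor, 11 of 24 listed genes were measured, 6 negative and 5 positive, with a median of -0.04. Itpr2, a receptor that releases calcium from the endoplasmic reticulum, had -0.77 (SE 0.23, limma adjusted p = 0.771) and passed with random mouse effects (adjusted p = 0.0451). The G protein subunit Gna14 had -0.52 (SE 0.47) and Rgs2, which shortens Gq signals, had -0.37 (SE 0.27). Gnaq, the alpha subunit of Gq, had 0.00037 (SE 0.22), and the phospholipase Plcb3 had 0.28 (SE 0.14). The kinases Prkcd and Prkcz, the kinase subunits Camk2d and Camk2g, the calcium sensor Calm2 and the receptor kinase Grk5 lay between -0.17 and 0.14. On the second reading Itpr2 had 0.06 and Arg2 -0.15, so neither difference was of like size on both readings, as that of Slc14a1 was. Like size was not particular to Slc14a1. The protein kinase A subunit Prkar1a had 0.26 on both readings, Calm2 -0.17 and -0.22, and Gna14 -0.52 and 0.39.

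Of the cyclic AMP arm, through which the V2 receptor acts, 10 of 21 listed genes were measured, 4 negative and 6 positive, with a median of 0.01. The adenylyl cyclases Adcy3, Adcy7 and Adcy9 had -0.14 (SE 0.20), 0.26 (SE 0.26) and -0.15 (SE 0.18). The protein kinase A subunits Prkaca, Prkar1a and Prkar2b had -0.04 (SE 0.17), 0.26 (SE 0.17) and 0.01 (SE 0.17). The phosphodiesterases Pde3a, Pde4b and Pde4d, which break down cyclic nucleotides, lay between 0.01 and 0.03, and the kinase anchor Akap11 had -0.28 (SE 0.21). Like Slc14a1, Adcy7 and Adcy9 had a dye term past the limma threshold, of 1.17 (adjusted p = 0.00959) and 0.37 (adjusted p = 0.0427). The difference of Adcy7 between groups was 1.17 (SE 0.20) on the second reading.

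**Figure D4:**
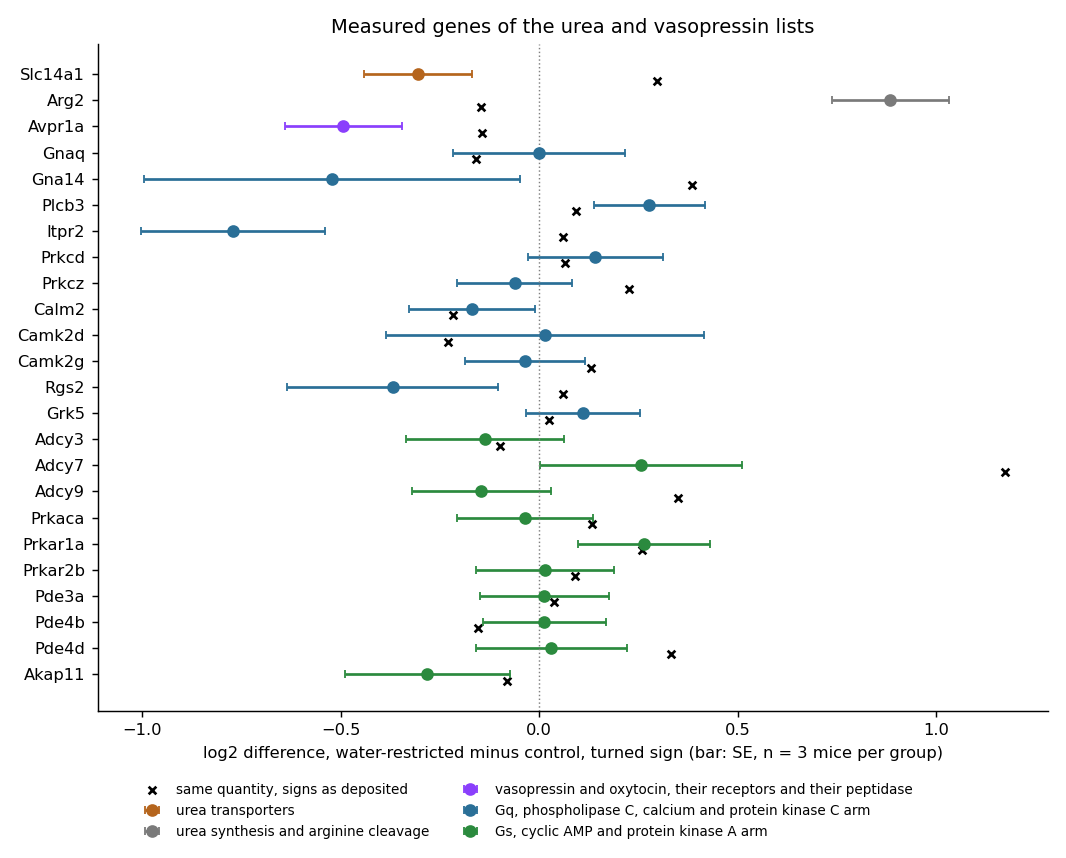
Log2 difference (x axis) of the 24 measured genes of the urea, water and vasopressin lists (y axis), coloured by role, with the ratio read as running by dye. Bars are limma SE with 3 mice per group, and crosses give the difference with signs as deposited. Avpr1a, Itpr2 and Slc14a1 lie on the negative side and Arg2 on the positive side, and the Slc14a1 cross lies on the other side of 0.

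Markers of cells that carry these proteins lay on different sides on the first reading, and none of those named here passed the limma threshold between mouse levels. Of 13 listed red cell genes 4 were measured and 3 were negative, as Slc14a1 was. The haemoglobin gene Hbb-b1 had -0.999 (SE 0.25) and the anion exchanger Slc4a1, which intercalated cells also express, -0.74 (SE 0.24) (limma adjusted p = 0.702 and 0.771). The haem enzyme Alas2 had -0.24 (SE 0.22) and the transferrin receptor Tfrc, present in many cells, 0.33 (SE 0.19). The mean level of these 4 was -0.44 to -0.05 in the water-restricted mice and 0.19 to 0.23 in the control mice. On the second reading the red cell median was 0.19, against -0.49 on the first. Hbb-b1 and Slc4a1 also had dye terms past the threshold, of 0.37 (limma adjusted p = 0.0241) and 0.50 (0.0401), of the same sign as that of Slc14a1. Such dye terms were not particular to red cell genes, and 6.62% of all genes had one past the threshold. In other cell lists Krt7 (0.38), Krt8 (0.46), Krt18 (0.52), Cd34 (0.50) and Slc22a7 (0.64) passed with this sign, and Gatm (-0.32) with the other. The part of red cell RNA in the Slc14a1 difference was not tested.

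On the first reading, 3 of 4 measured markers in each of the endothelial and smooth muscle lists lay on the side opposite to Slc14a1 and Avpr1a. Of all 6786 genes, 3442 lay on that side. Of 17 listed endothelial genes 4 were measured, with 1 negative and a median of 0.16. They were Emcn at -0.01 (SE 0.16), Esam at 0.27 (SE 0.18), Ehd3 at 0.18 (SE 0.18) and Cd34 at 0.15 (SE 0.18). Their mean level was 0.03 to 0.14 in the water-restricted mice and -0.23 to 0.08 in the control mice. Of 14 listed genes of smooth muscle and pericytes 4 were measured with 1 negative and a median of 0.05, and their mean level was -0.10 to 0.14 in the water-restricted and -0.10 to 0.01 in the control mice. These were the contractile protein Cnn1 at 0.61 (SE 0.17), Smtn at 0.03 (SE 0.14), the pericyte receptor Pdgfrb at -0.31 (SE 0.21) and Mcam at 0.07 (SE 0.19). With signs as deposited, the second reading, 2 of the 4 endothelial genes were negative, with a median of 0.06, and 0 of the 4 smooth muscle genes, with a median of 0.16. Over all genes 2756 of 6786 were negative on that reading, with a median of 0.05. Of 12 listed urothelial genes 3 were measured. All 3 were negative on the first reading, with a median of -0.18, and positive on the second, with a median of 0.38.

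The principal cell and proximal tubule lists had medians larger in size than the difference of either gene, though no member passed the limma threshold between mouse levels. All 5 measured of 17 listed principal cell genes were negative, with a median of -0.59 and a mean level of -0.33 to -0.28 in the water-restricted and 0.11 to 0.51 in the control mice. Among them Fxyd4, which regulates the sodium pump, had -1.10 (SE 0.22), the keratins Krt8 and Krt18 had -0.29 (SE 0.25) and -0.87 (SE 0.19), and the transcription factor Gata3 had -0.59 (SE 0.18). The 4 measured of 20 listed proximal tubule genes were positive, with a median of 1.24 and a mean level of 0.50 to 0.69 in the water-restricted and -1.20 to 0.25 in the control mice. The endocytic receptor Lrp2 had 1.05 (SE 0.35), the transporter Slc22a7 0.67 (SE 0.52), Gatm 1.48 (SE 0.52) and Miox 1.43 (SE 0.32). On the second reading these medians were 0.17 and 0.08. Of 12 listed interstitial genes 8 were measured, 5 negative and 3 positive, with a median of -0.23, against -0.0015 on the second reading. The collagens Col1a1, Col1a2 and Col3a1 had -0.46 (SE 0.35), -0.20 (SE 0.18) and -0.56 (SE 0.17), and the proteoglycan Dcn had 0.55 (SE 0.18). Both measured intercalated cell genes of 13 listed, Slc4a1 and Kit, were negative on the first reading, with a median of -0.40, against 0.27 with 1 negative on the second. No gene of the thick ascending limb list was measured. With random mouse effects, which called 1.46% of all genes, the limma calls in the cell lists were 1 erythroid gene, Hbb-b1 (adjusted p = 0.00514), 1 smooth muscle gene, Cnn1 (0.0189), 1 interstitial gene, Col3a1 (0.0254), 3 principal cell genes, Fxyd4 (0.00265), Krt18 (0.00724) and Gata3 (0.0325), and 2 proximal tubule genes, Miox (0.00836) and Gatm (0.0444). Because that fit shares its variance ratio over all genes, a call can rest on mice that differ much within a group. The Gatm levels overlapped between groups, at 0.58, 0.49 and 1.15 in water-restricted mice and 0.65, -1.44 and -1.43 in control mice. The part of these cell types in the Slc14a1 and Avpr1a differences was not tested.

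Across arrays, Slc14a1 and Avpr1a did not vary together. With values centred within each orientation, a measure that is the same on both readings, their Pearson r over 12 arrays was -0.27. These arrays share mice and dyes and are not independent. The 5 genes most like Slc14a1 were Itgb1, an integrin subunit (r = 0.96), St13, a co-chaperone (0.94), Cdipt, which makes phosphatidylinositol (0.92), Bche, or butyrylcholinesterase (0.88), and Pitpna, a phosphatidylinositol carrier (0.87). Without the 2 arrays on which Slc14a1 lay farthest from its orientation mean, the reverse array of water-restricted mouse 2 and control mouse 1 and the forward array of water-restricted mouse 3 and control mouse 2, these r lay between 0.82 and 0.94. The likeness does not use the difference between groups. On the first reading Itgb1, St13, Cdipt and Pitpna had differences of 0.13, 0.18, 0.0033 and 0.11, and Bche had 0.94 (SE 0.15), on the side opposite to Slc14a1. On the second reading Bche and Cdipt both had 0.37, St13 had 0.24 and Pitpna 0.06, on the side that Slc14a1 takes there, and Itgb1 had -0.03. The least like were Slc1a5 (r = -0.85), Sars2 (-0.82) and Rmnd5a (-0.79).

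The 5 genes most like Avpr1a were Dazl (r = 0.88), Zbed3 (0.87), Rnf122 (0.87), Mbnl3 (0.86) and Atp8b2 (0.86), and their differences ran from -0.30 to 0.01 on the first reading and from -0.31 to 0.14 on the second. The least like were Nrm (-0.85), Camk2g, a calcium-dependent kinase subunit of the V1a list (-0.84), and Slc17a9 (-0.83). As for Slc14a1, these are extremes of a search over all genes, and what r the search alone gives was not tested. The likeness was weaker without 1 array: without the reverse array of water-restricted mouse 1 and control mouse 3, on which Avpr1a read 1.78, the r of the 5 most like genes fell to between 0.62 and 0.74.

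Under the other choices of processing, Avpr1a ranged from -0.56 to -0.06 and Slc14a1 from -0.64 to 0.33. These ranges pool both readings, on which a like sign need not mean a like direction. The Avpr1a values nearest 0 came from the second reading, at -0.14 (SE 0.19) and, with random mouse effects, -0.06 (SE 0.15). The latter equals the Avpr1a dye term of the first reading, which was 0.083 without the array of widest spread. Leaving out each mouse in turn gave -0.33 to -0.29 for Slc14a1 and -0.54 to -0.42 for Avpr1a.

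**Figure D5:**
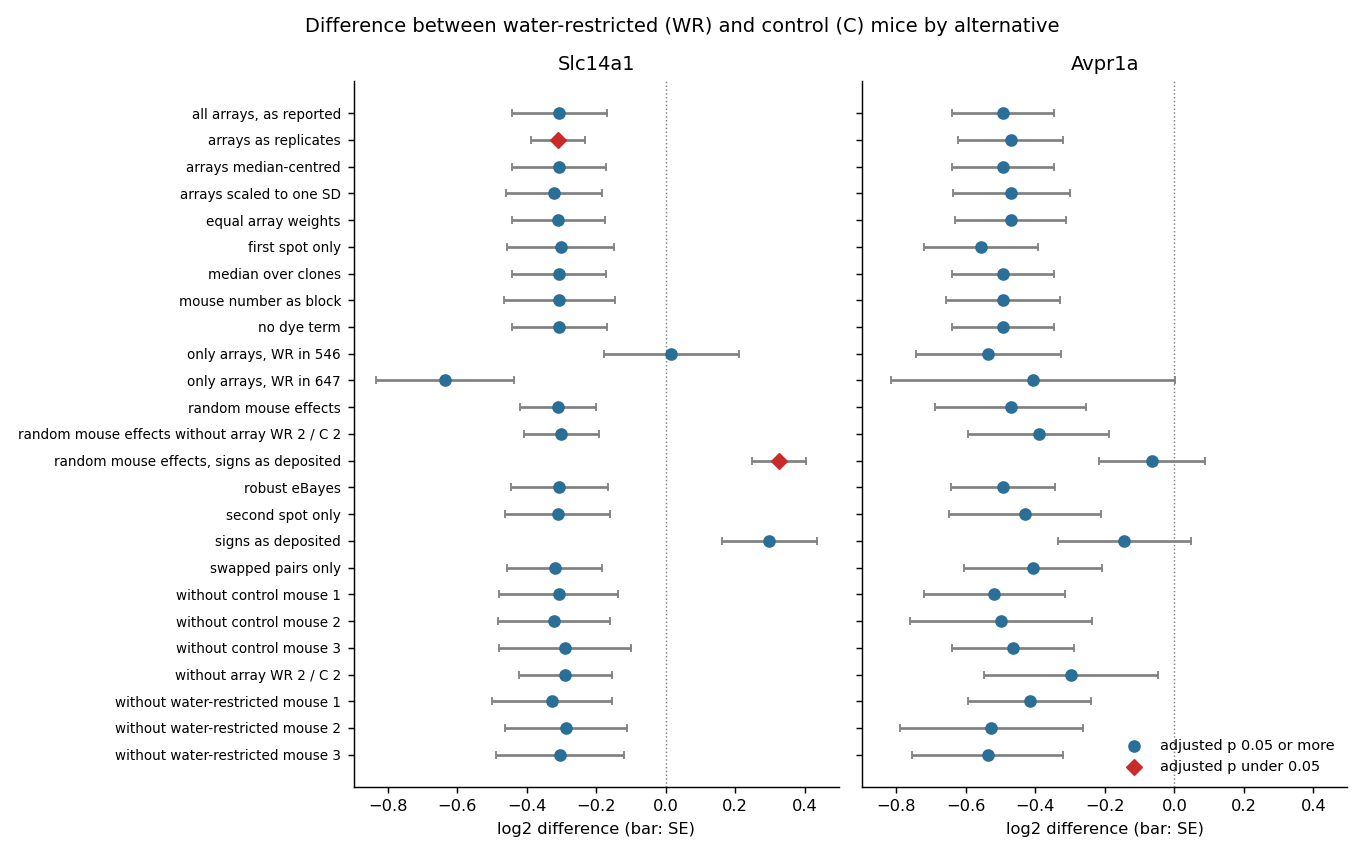
Log2 difference between water-restricted and control mice (x axis) for Slc14a1 and Avpr1a under each way of processing (y axis), with limma SE as bars and red diamonds for adjusted p under 0.05. Avpr1a is negative throughout, but with signs as deposited a minus need not mean the same direction. Slc14a1 is near 0 on forward arrays and positive with signs as deposited.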

How the data were processed

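Amplified medullary RNA was hybridised, per the labels. For each of 12 arrays the authors deposited log2 ratios between channels at 31200 spots. The log base was read from the values, which reach -15.2. How they were scanned, background-corrected, normalized and centred is not given in the sources used here. The precision is limited by the 3 mice per group, which are the replicates, as well as by the number of arrays. The 2 adjacent spots of a clone, then all clones of a gene, were averaged (6786 genes), named through the platform annotation and, for 9085 clones, a RefSeq table of GRCm38.p6. A weighted least-squares fit (weight 0.5 for each array of a swapped pair, with a dye term) gave 6 mouse levels per gene, compared 3 against 3 with limma 3.58.1 in R 4.3.3, adjusted over all genes. Dye terms and mouse F-tests used all 12 arrays. The random-effects fit used a mouse to array variance ratio of 0.15, the same for all genes. The procedure was run on simulated data with planted differences, all larger than those reported for Slc14a1 and Avpr1a. That run does not show how often differences of their size would be found.

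Nothing in the labels says more of the mice than their group and number. The genes and lists were chosen with earlier results of these data known. Both genes and the 5 most and 3 least like each were named. Measured pathway genes, and up to 4 measured genes per cell list in list order, could be named. Alternatives covered sign, centring, scale, weights, dye term, orientation, spots, arrays and mice.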

Additional observations from a re-analysis of the deposited data

Results flagged for a closer look

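Dixon's gap test was applied to both genes in each dye orientation (4 groups of 6 arrays), where chance picks out about 1 group in 20. It picked out the Slc14a1 value of 1.08 on the reverse array of control mouse 1 and water-restricted mouse 2, whose gap to the next value was 0.754 of the range. It also picked out the Avpr1a value of 1.78 on the reverse array of control mouse 3 and water-restricted mouse 1, at 0.635 of the range, just above the critical value of 0.625. The arrays of the same mice in the other orientation read 0.17 for Slc14a1 and -0.22 for Avpr1a. The Slc14a1 values also differed between dye orientations once turned, with a dye term of 0.33 (limma adjusted p = 0.0473). The cause was not tested.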

How the results depend on the processing

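The Avpr1a difference had a minus sign and missed the threshold on all 24 alternatives, as did its test over clones on all 23. These alternatives pool both readings, on which a like sign need not mean a like direction. The Slc14a1 difference kept its sign on 21 of 24. It was 0.017 on forward arrays, and with signs as deposited it was 0.30, or 0.33 with random mouse effects, an alternative added after seeing the data in which the estimated mouse variance was 0 and limma's adjusted p was 0.0343 over genes and 0.0513 over clones. With arrays as replicates it was -0.31 and passed (limma adjusted p = 0.0290). The Slc14a1 dye term missed the threshold with median centring (0.30), the first spot (0.31) and the second (0.34), and that of Avpr1a was 0.083 without the array of widest spread. Genes past the threshold, 0 in the comparison as reported, numbered 451 with arrays as replicates, 99 with random mouse effects, 167 with these and without that array, 332 with these and signs as deposited (the last 2 added after seeing the data), 1 on reverse arrays and 1 with swapped pairs alone. Pathway genes past it numbered 3, 2, 2 and 3 in the first 4 of these. Deviations of same-numbered mice from their group means were not alike (r = -0.01, -0.54 and -0.11). These mice share an array, whose error moves their levels in opposite directions, so this cannot exclude a pairing by number. With the mouse number as a replicate block the differences were -0.31 and -0.49 (limma adjusted p = 0.998 for both). Likeness without 1 or 2 arrays was added after seeing the data. Ratios without signal over background limit what can be said of dim spots.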
